A study of Mus musculus with 6 samples.

Results

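Described here are 38 genes of the lysosome and its control: 3 transcription factors of the TFEB family, 16 subunits of the vacuolar proton pump (V-ATPase), 5 lysosomal membrane proteins and 14 hydrolases or hydrolase activators. They were taken by symbol from a named list and make up 38 of the 55487 genes in the deposited tables. 37 of them were among the 11950 genes with enough counts to test, and Cd63, a tetraspanin of late endosomes, was not. The study sequenced poly(A) RNA of splenic naive CD4+ T cells (TN) from C57BL6/J mice of wild-type genotype, in 3 libraries from untreated animals and 3 from animals that received rapamycin, an inhibitor of the kinase mTOR. No other allele or agent is given for either group, and the dose, the duration and the age of the mice are not given in the sources used here. Nothing in the labels says that the libraries of a group came from separate mice, so the p-values reflect how far these libraries scatter, and that scatter may be technical.

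The lysosome is the acidic compartment in which cells break down protein, lipid and sugar chains. The V-ATPase acidifies it: a membrane-embedded V0 sector carries protons through the membrane, and a cytosolic V1 sector hydrolyses ATP to drive it. On the same membrane mTOR complex 1 senses amino acids and phosphorylates TFEB and TFE3, which keeps these factors in the cytosol, and on release they enter the nucleus and bind CLEAR elements in the promoters of lysosome genes.

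Since TFEB-family factors are known through the CLEAR element, its palindromic core TCACGTGA was searched on both strands in RefSeq promoter windows (build GRCm38.p6), which reach from 250 bases before to 50 bases after a transcription start and total 300 bases. A window was given for 31 of the 38 genes. The core stood in 7 of these 31 (22.6%), against 0.974% of all 32851 windows, 1.12% of the 27025 genes with a window and 2.35% of the 8726 tested genes with a window. The element is known from promoters of lysosome genes, so a raised share among lysosome genes is no independent result. The 9 stretches are shown because they are the letters these genes have in common beyond their function. Each is printed 5′ to 3′ on the strand of its gene, with the core in capitals, and positions count from the RefSeq start, the base before it being −1.
Atp6v0d1, chr8:105566050-105566079, minus strand, core from −4: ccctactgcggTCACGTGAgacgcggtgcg
Atp6v0e, chr17:26676387-26676416, plus strand, core from 3: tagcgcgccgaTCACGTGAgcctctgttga
Atp6v1a, chr16:44139373-44139402, minus strand, core from −132: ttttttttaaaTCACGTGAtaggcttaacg
Ctsa, chr2:164833749-164833778, plus strand, core from −13: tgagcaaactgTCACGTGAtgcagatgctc
Ctsa, chr2:164833766-164833795, plus strand, core from 5: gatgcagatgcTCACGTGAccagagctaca
Ctsd, chr7:142387908-142387937, minus strand, core from −99: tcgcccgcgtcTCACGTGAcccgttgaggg
Gla, chrX:134601182-134601211, minus strand, core from −195: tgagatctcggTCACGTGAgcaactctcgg
Gla, chrX:134601215-134601244, minus strand, core from −228: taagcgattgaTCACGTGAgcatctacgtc
Mcoln1, chr8:3500462-3500491, plus strand, core from −46: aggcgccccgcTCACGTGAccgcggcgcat
In the GENCODE annotation, which places some starts farther upstream, the Atp6v0d1 and Gla stretches lay outside the gene. The Atp6v1a stretch lay in an intron, and those of Atp6v0e, Ctsa, Ctsd and Mcoln1 overlapped an exon with untranslated sequence.

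The shorter E-box CACGTG, which is contained in the CLEAR core, was found in 12 of the 31 genes (38.7%), against 12.1% of the tested genes with a window and 7.15% of all windows. Beside the CLEAR genes these were Atp6v0b, Ctsl, Gaa, Glb1 and Lamp1. The M-box core TCATGTG stood in the windows of Atp6v0c, Ctsa, Gla and Scarb2, or 12.9% of the 31 genes against 2.72% of the tested genes with a window and 3.77% of all windows. A match is a description of the letters and not evidence of binding.

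Untreated libraries held 11393317, 10384573 and 9712671 expected counts, and rapamycin libraries 9315370, 9014202 and 8757280. Levels between libraries are given as CPM, counts corrected for depth and library composition, on which 3 counts amount to 0.263 to 0.343. Changes are log2 fold changes of rapamycin over untreated from edgeR's quasi-likelihood test, with adjusted p-values (Benjamini-Hochberg) below 0.05 called. Across 9979 genes with enough counts, these changes rose with transcript length (Spearman's rho 0.51, across genes, which are not independent), from a median of −0.32 among the 998 shortest to 0.25 among the 998 longest. Fragment length as implied by the deposited effective lengths also differed, 239.2 to 239.8 bases in the untreated and 250.6 to 256.5 in the rapamycin libraries, and this and the treatment cannot be told apart. Each change is therefore given a second time with a length correction, a fit that removes each library's trend with transcript length.

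The cell type label was checked against markers. Summed over 10 naive CD4 T cell markers, levels were 6394 to 6480 CPM untreated and 6865 to 6949 CPM with rapamycin, and Cd4 itself was at 676 to 728 CPM in the 6 libraries. Markers of other cells were present and moved. Of 20 myeloid markers 13 could be tested, 11 were lower and 2 were not called, and the sum of all 20 was 108 to 117 CPM untreated and 57.7 to 58.7 CPM with rapamycin. None of the 20 was at 0 in all rapamycin libraries, and Lyz2, the macrophage lysozyme, was at 15.7 to 17.9 and 3.5 to 3.93 CPM. 12 B cell markers summed to 1386 to 1437 and 1290 to 1352 CPM, with 3 lower and none at 0, and 9 plasma cell markers to 240 to 246 and 156 to 160 CPM. Of the 7 plasma cell markers tested 1 was higher and 5 lower. The sum is mostly the light chain gene Igkc (mean 155 and 99 CPM), while Jchain was at 11.6 and 0.788 CPM, Ighg2b at 17.8 and 0.381 CPM and Prdm1, which activated T cells also use, at 8.94 and 18.7 CPM. The 2 CD8 markers rose from 19.1 to 20.5 up to 87.9 to 91 CPM. Myeloid, B and plasma cells use many of the same lysosome genes as T cells, so these sums belong beside every change given here, and their part in the results was not tested. In such bulk libraries fewer cells of a type and less RNA per cell cannot be told apart.

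Of the 37 genes tested, 4 (10.8%) were called higher and 19 (51.4%) lower with rapamycin, and 14 were not called. Across all genes tested 47.4% were called, 24.1% higher and 23.3% lower. The median change of the 37 was −0.16, against −0.01 for all genes. The length correction left 6 higher (16.2%) and 13 lower (35.1%), against backgrounds of 20.2% and 18.3% (38.5% in all), and the median was then −0.11. All 13 of these had also been called lower without the correction. Of the other calls without it, 6 lower and 2 higher were lost, 4 genes gained a call as higher, and no call turned to the opposite direction.

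**Figure D1:**
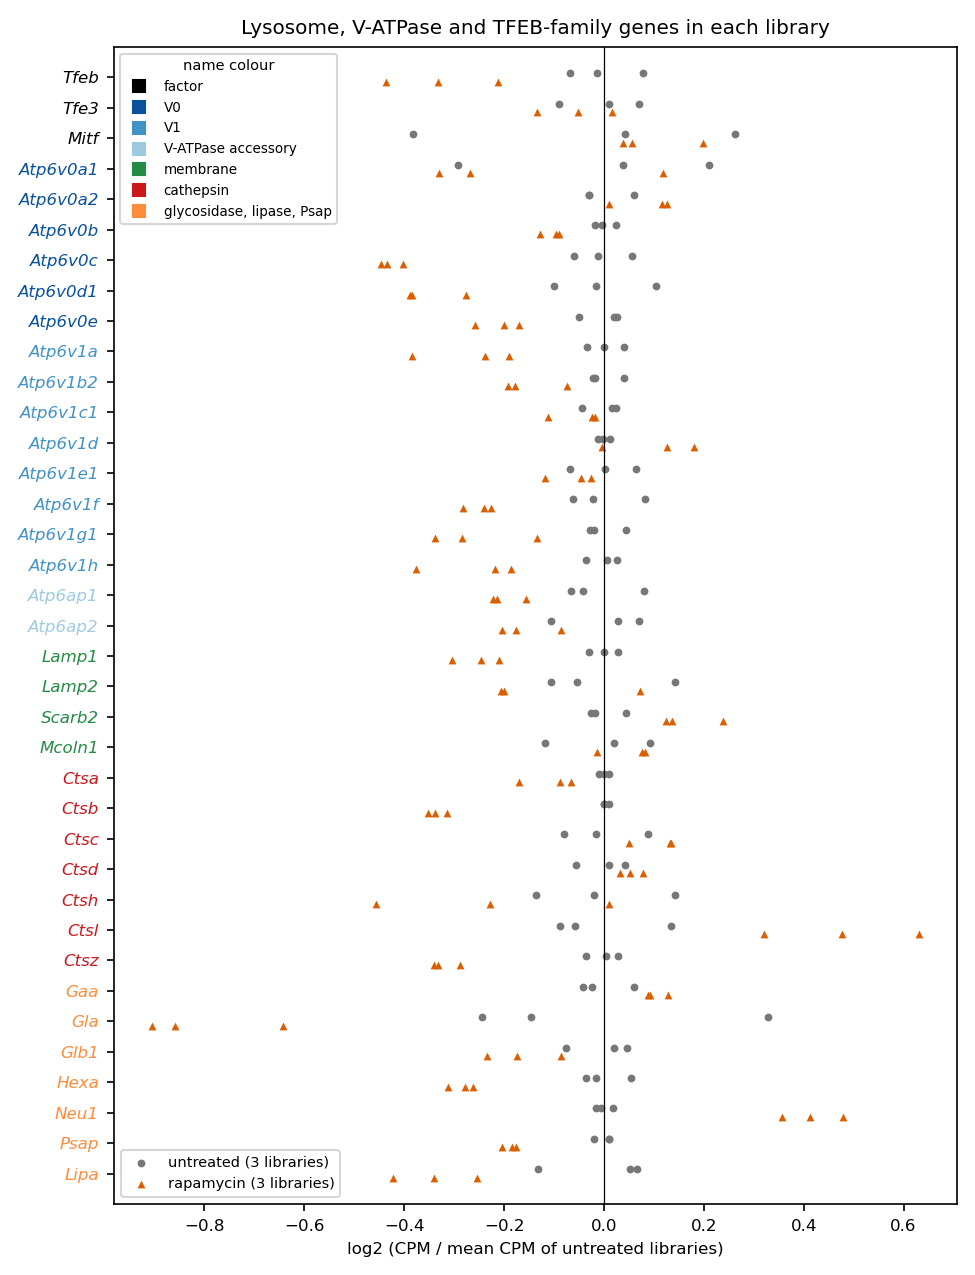
Level of each gene in every library as log2 of its CPM over the mean CPM of the untreated libraries (horizontal axis), with grey circles for the 3 untreated and orange triangles for the 3 rapamycin libraries and the gene names coloured by role; Cd63 is not shown. Most triangles lie left of the circles, farthest for Gla, and those of Neu1 and Ctsl lie to the right.

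In 24 of the 37 genes the 3 rapamycin libraries did not overlap the 3 untreated ones in CPM (64.9%), a separation found in 53.8% of all genes tested. The changes were small: the lowest was −0.80 (Gla) and the highest 0.48 (Ctsl). On TPM, a scale per transcript length, the order of levels between genes was led by Psap at a mean of 278 over the 6 libraries, followed by Ctsd (200) and the pump subunits Atp6v0c (146) and Atp6v1f (143). At the low end stood Gla (1.8), Mitf (1.12) and Cd63 (0.31).

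The factors came first. Tfeb, the master regulator of lysosome genes (chr17:47737030-47792419, mm10), measured 29.3, 32.4 and 30.4 CPM in untreated and 26.5, 24.4 and 22.7 CPM in rapamycin libraries. All 3 rapamycin libraries lay below all untreated ones. The edgeR change was −0.32 ± 0.09 (SE, n = 3 libraries per group, adjusted p = 0.00202), and −0.26 with the length correction (adjusted p = 0.0146). It kept its call in every alternative run except limma on log2(TPM + 1) and on log2(TPM + 0.1), where it was −0.25 and −0.26 with an adjusted p of 0.169.

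Tfe3, the sister factor with the same binding site, measured 28.4, 29.6 and 26.5 CPM against 28.5, 25.7 and 27.2 CPM. The groups overlapped and no change was called (−0.05 ± 0.09, adjusted p = 0.64). Mitf, the family member best known from pigment cells, was scarce at 2.34, 3.14 and 3.66 CPM against 3.17, 3.5 and 3.13 CPM. Its groups overlapped too, and its change of 0.11 ± 0.27 had an adjusted p of 0.771. Per transcript length Tfeb was the most abundant of the family, with a mean of 24.8 TPM untreated against 11.9 for Tfe3 and 1.12 for Mitf. These are transcript levels, and the phosphorylation and location of the proteins were not measured.

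In the V0 sector 3 of 6 subunits were lower and 1 higher. Atp6v0c, the proteolipid of the rotating ring and the most abundant V0 transcript, lies at chr17:24163866-24169702. It measured 119, 123 and 129 CPM untreated and 93.8, 91.8 and 91.0 CPM with rapamycin, with no overlap. The edgeR change of −0.42 ± 0.04 (adjusted p = 3.89e-12) was the lowest of the pump genes. It was −0.24 with the length correction (adjusted p = 1.62e-05). A pseudogene copy, Atp6v0c-ps2, was counted at 2.53 CPM, and how shared reads were divided limits the precision for both.

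Atp6v0d1, which couples the ring to the stalk of the pump, measured 44.4, 48.3 and 41.9 CPM against 34.4, 34.3 and 37.1 CPM. The groups were apart, with a change of −0.35 ± 0.07 (edgeR adjusted p = 6.67e-05; −0.22 and 0.0123 with the length correction). On log2(TPM + 1) it was −0.19 and not called (limma adjusted p = 0.131). Atp6v0e, a small V0 subunit whose transcript averages 897 bases, measured 59.4, 56.6 and 59.7 CPM against 52.1, 49.0 and 51.0 CPM. All 3 rapamycin values were lower (−0.21 ± 0.06, edgeR adjusted p = 0.00388), but the length correction moved the change to 0.06 with an adjusted p of 0.446.

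Atp6v0b, a second ring proteolipid with a transcript of 827 bases, went the other way under that correction. It measured 47.6, 46.7 and 46.2 CPM against 42.8, 44.0 and 43.8 CPM, lower in every rapamycin library. The change was not called (−0.11 ± 0.07, adjusted p = 0.195), while the corrected one was 0.18 with an edgeR adjusted p of 0.0232. Its direction therefore rests on how length is treated.

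Among the large membrane subunits, Atp6v0a2, the a isoform of Golgi and endosomes, measured 140, 140 and 149 CPM against 156, 155 and 144 CPM. The lowest rapamycin library overlapped the untreated range. The change of 0.09 ± 0.04 was just called by edgeR (adjusted p = 0.0491), and it was −0.01 with the length correction. The call was also lost without rapamycin library 1 or 2 or untreated library 1 or 2, with changes of 0.07 to 0.08, and with DESeq2 (0.09, adjusted p = 0.143) and limma on log2(TPM + 1) (0.22, adjusted p = 0.0659). Atp6v0a1, the a isoform of neuronal and lysosomal pumps, lay at 7.22 to 10.5 CPM in the 6 libraries and was not called (−0.16 ± 0.16, adjusted p = 0.454), and on log2(TPM + 1) its change was 0.37 (limma adjusted p = 0.137).

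In the V1 sector 5 of 8 subunits were lower and 3 were not called. Atp6v1a, the catalytic A subunit that hydrolyses ATP (chr16:44085402-44139705), measured 38.9, 38.0 and 40.0 CPM against 33.0, 29.8 and 34.1 CPM. No rapamycin library reached the untreated range. The change was −0.27 ± 0.08 (edgeR adjusted p = 0.00274), and −0.36 with the length correction, since its transcript of 3599 bases is among the longer ones. On log2(TPM + 1) it was 0.07 and not called (limma adjusted p = 0.793), on a scale where the median of all genes was itself shifted up by 0.10.

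Atp6v1b2, the non-catalytic B subunit, measured 85.2, 88.7 and 85.0 CPM against 76.3, 82.0 and 75.5 CPM, without overlap. Its change of −0.15 ± 0.05 (edgeR adjusted p = 0.0142) was the same with the length correction (−0.15). It lost its call without rapamycin library 1 or 3 or untreated library 2 (−0.13, −0.12 and −0.13), with DESeq2 (adjusted p = 0.0709) and on log2(TPM + 1), where it was 0.06. Atp6v1h, a regulatory subunit, measured 45.6, 45 and 43.7 CPM against 34.5, 38.5 and 39.4 CPM. That decrease of −0.26 ± 0.07 (edgeR adjusted p = 0.00208) kept its call with the length correction (−0.22) and lost it on log2(TPM + 1) (−0.16, limma adjusted p = 0.118).

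2 short V1 transcripts were called lower without the length correction and not called with it. Atp6v1f, the F subunit of the central stalk and the most abundant V1 transcript per length, averages 703 bases and measured 50.1, 55.4 and 51.5 CPM against 43.0, 44.7 and 44.3 CPM. Its groups were apart (−0.25 ± 0.07, edgeR adjusted p = 0.0013), and the corrected change was 0.08 with an adjusted p of 0.364. Atp6v1g1, the G subunit of the outer stalk, measured 60.1, 62.8 and 59.7 CPM against 50, 55.5 and 48.2 CPM, also apart. Its change went from −0.25 (edgeR adjusted p = 7.3e-04) to −0.04 (0.664). On log2(TPM + 1) neither was called (−0.12 and −0.14, limma adjusted p = 0.099 and 0.124).

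Atp6v1d, the D subunit of the rotor, differed from the rest of the sector. It measured 92.8, 93.4 and 94.3 CPM against 102, 106 and 93.2 CPM, so that rapamycin library 3 fell within the untreated range. The change of 0.11 ± 0.05 was not called (edgeR adjusted p = 0.0574), was called without rapamycin library 3 (0.16, adjusted p = 0.00878), and was 0.27 with the length correction (adjusted p = 7.53e-06). Atp6v1c1, which controls the joining of the sectors, and Atp6v1e1, an outer stalk subunit, overlapped between groups and were not called either way (−0.05 and −0.06).

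The pair of accessory subunits was lower without the length correction and not called with it. Atp6ap1, needed for assembly of the pump, measured 101, 110 and 99.4 CPM against 93.4, 89.6 and 89.2 CPM, without overlap. Its change was −0.19 ± 0.05 (edgeR adjusted p = 6.9e-04), or −0.11 corrected (adjusted p = 0.0566), and 0.09 and not called on log2(TPM + 1). Atp6ap2, also known as the prorenin receptor, measured 56.6, 51.6 and 58.3 CPM against 52.3, 49.1 and 48.2 CPM. Here the groups overlapped, the change was −0.15 ± 0.06 (adjusted p = 0.0427), and leaving out rapamycin library 2 or 3 or untreated library 1 or 3 ended the call, with changes of −0.12 to −0.14. So did DESeq2 (−0.15, adjusted p = 0.148) and limma on log2(TPM + 1) (−0.03, adjusted p = 0.754).

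**Figure D2:**
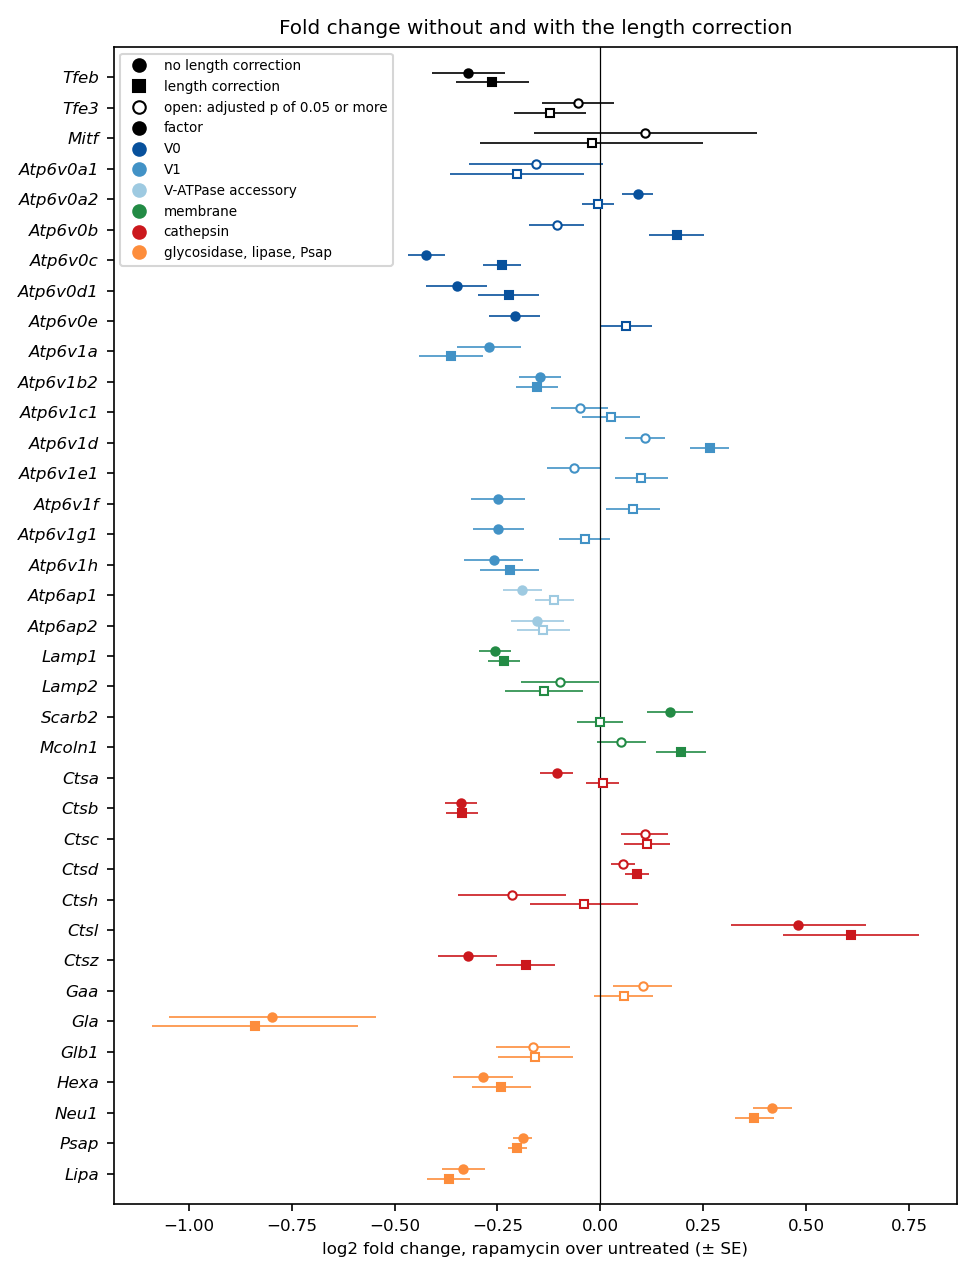
Log2 fold change of rapamycin over untreated for the 37 genes tested (horizontal axis, bars are SE from edgeR over 3 libraries per group), as circles without and squares with the length correction, coloured by role and filled where the adjusted p was below 0.05. The squares of short transcripts such as Atp6v0b, Atp6v0e and Atp6v1f lie right of their circles, while those of Gla, Ctsb, Neu1, Psap and Lipa lie close to theirs.

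Of the 5 membrane proteins 1 was lower and 1 higher. Lamp1, the heavily glycosylated protein that lines the lysosome (chr8:13159161-13175338), measured 144, 147 and 150 CPM against 119, 127 and 124 CPM. The groups were well apart, and the change was −0.26 ± 0.04 (edgeR adjusted p = 1.57e-07) and −0.23 with the length correction, or −0.16 and called on log2(TPM + 1). Its relative Lamp2, which also serves chaperone-mediated autophagy, overlapped at 25.1 to 29.8 CPM against 23.4 to 28.4 CPM (−0.10, adjusted p = 0.409). In Cd63, measured at 0.102 to 0.38 CPM untreated, 2 rapamycin libraries were at 0 and the third at 0.451 CPM, all near the level that 3 counts give.

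Scarb2, or LIMP-2, the receptor that carries glucocerebrosidase to lysosomes, measured 63.5, 63.2 and 66.3 CPM against 75.9, 70.7 and 70.1 CPM. It was higher in every rapamycin library (0.17 ± 0.06, edgeR adjusted p = 0.00949), but its transcript of 4666 bases is the longest of the list and the corrected change was −0.0011 (adjusted p = 0.991). Without rapamycin library 1 the call was lost (0.13). Mcoln1, the calcium channel through which lysosomes activate TFEB, measured 56.0, 61.7 and 64.8 CPM against 60.2, 64.1 and 64.4 CPM. Those overlapped (0.05, adjusted p = 0.518), turned to −0.01 without untreated library 1, and came to 0.20 with the length correction (edgeR adjusted p = 0.00731).

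Among the 7 cathepsins 3 were lower and 1 higher. Ctsb, a cysteine protease of broad specificity (chr14:63122462-63145923), measured 148, 149 and 148 CPM against 116, 119 and 117 CPM. The groups did not overlap. The change of −0.34 ± 0.04 (edgeR adjusted p = 5.44e-11) was also −0.34 with the length correction. Its exons share 774 bases with Fdft1 on the opposite strand, a gene at 22.2 CPM, and whether counting used strand is not given in the sources used here.

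Ctsz, a carboxypeptidase, measured 44.3, 45.1 and 43.1 CPM against 35.1, 34.9 and 36.2 CPM. That change of −0.32 ± 0.07 (edgeR adjusted p = 1.5e-04) was −0.18 corrected (adjusted p = 0.0387), and −0.17 and no longer called with length and GC content corrected (adjusted p = 0.059). On log2(TPM + 1) it was −0.21 and called. Ctsa, or protective protein, which stabilises the sialidase Neu1 and beta-galactosidase, measured 134, 136 and 135 CPM against 120, 127 and 129 CPM. The groups did not overlap and the change was −0.11 ± 0.04 (edgeR adjusted p = 0.0241), but it became 0.01 with the length correction, 0.10 and not called on log2(TPM + 1), and lost its call by DESeq2 (adjusted p = 0.108) and without rapamycin library 1 (−0.08) or untreated library 2 (−0.10).

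Ctsl, a cysteine protease that also processes antigen in the thymus, was the cathepsin called higher. It measured 6.33, 7.23 and 6.20 CPM against 9.17, 8.23 and 10.2 CPM, on 61 to 88 counts per library. All rapamycin values were above all untreated ones (0.48 ± 0.16, edgeR adjusted p = 0.0129; 0.61 and 0.00218 with the length correction). The call was lost without rapamycin library 3 (0.40) or untreated library 3 (0.44), by DESeq2 (adjusted p = 0.0526), and by limma on log2(TPM + 1) (0.24, adjusted p = 0.449).

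Ctsd, the aspartic protease and the most abundant cathepsin transcript, measured 257, 275 and 269 CPM against 277, 282 and 273 CPM. The groups overlapped, and the change of 0.06 ± 0.03 was not called by edgeR (adjusted p = 0.118), although it was with the length correction (0.09, adjusted p = 0.0133). Ctsc, which activates granule proteases, and Ctsh, an aminopeptidase, were not called (0.11 and −0.21), and their groups overlapped. On log2(TPM + 1) Ctsc and Ctsd were called higher (0.31 and 0.16, limma adjusted p = 0.0128 and 0.0132).

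The remaining 7 genes of the hydrolase group held the lowest change of the list, in Gla, and the highest among genes of at least 20 CPM, in Neu1. Neu1, the lysosomal sialidase that trims sialic acid from glycoproteins (chr17:34931253-34935953), measured 81.4, 79.5 and 80.1 CPM untreated and 107, 103 and 112 CPM with rapamycin. Every rapamycin library lay above every untreated one. The change was 0.42 ± 0.05 (edgeR adjusted p = 4.8e-11) and 0.37 with the length correction, and it kept its call in all 18 alternatives run (0.37 to 0.45).

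Gla, alpha-galactosidase A, which cleaves globotriaosylceramide (chrX:134588149-134601125), moved by more but on few counts, 23 to 62 per library. It measured 4.25, 5.90 and 3.97 CPM against 2.51, 2.59 and 3.01 CPM, without overlap. The change was −0.80 ± 0.25 (edgeR adjusted p = 0.00677; −0.84 and 0.00557 with the length correction). Without untreated library 2, the highest, it was −0.61 and no longer called (adjusted p = 0.0852), as on log2(TPM + 1) (−0.44, limma adjusted p = 0.0649).

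Psap, the precursor of the saposins that present lipids to hydrolases (chr10:60277627-60302597), was the most abundant gene of the list. It measured 528, 528 and 517 CPM against 464, 461 and 455 CPM. The separation was clear at this depth of 3925 to 6093 counts (−0.19 ± 0.02, edgeR adjusted p = 4.31e-10; −0.20 with the length correction and −0.09, still called, on log2(TPM + 1)). Lipa, the acid lipase that releases cholesterol and fatty acids, measured 98.6, 113 and 112 CPM against 90.6, 85.3 and 80.6 CPM. Its groups were apart, with −0.33 ± 0.05 (edgeR adjusted p = 2.54e-07) and −0.37 corrected.

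Hexa, the alpha subunit of hexosaminidase A, also measured lower, at 43.3, 42.7 and 45.5 CPM against 35.3, 36.1 and 36.5 CPM. That change of −0.29 ± 0.07 (edgeR adjusted p = 7.2e-04) was −0.24 corrected, and −0.18 and not called on log2(TPM + 1) (limma adjusted p = 0.0613). Glb1, beta-galactosidase, and Gaa, the acid alpha-glucosidase that degrades glycogen, were not called, at −0.16 and 0.10, although in neither did the groups overlap. On log2(TPM + 1) Gaa was called higher (0.34, limma adjusted p = 0.04). Glb1 shares 165 exon bases with Tmppe on the same strand. Ctsa, Neu1 and Glb1, whose proteins form one complex, thus had changes of −0.11, 0.42 and −0.16 in the same libraries.

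Pump and hydrolases were set beside each other. Of 16 V-ATPase subunits 1 was higher and 10 lower, with a median change of −0.17. Of the 14 hydrolases 2 were called higher and 7 called lower (median −0.18). With at least 20 CPM on average, 15 pump subunits ranged from −0.42 to 0.11 (−0.36 to 0.27 with the length correction), and 11 hydrolases from −0.34 to 0.42 (−0.37 to 0.37). The upper end of the hydrolases is Neu1, and the next highest of the 11 is Ctsc at 0.11. With the length correction 2 and 5 of the pump subunits and 3 and 6 of the hydrolases were higher and lower, with medians of −0.08 and −0.10. 5 of the 10 pump subunits called lower, Atp6v0e, Atp6v1f, Atp6v1g1, Atp6ap1 and Atp6ap2, were not called after that correction, against 1 of 7 hydrolases, Ctsa. No test was made over these groups, since their genes were picked with results known.

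**Figure D3:**
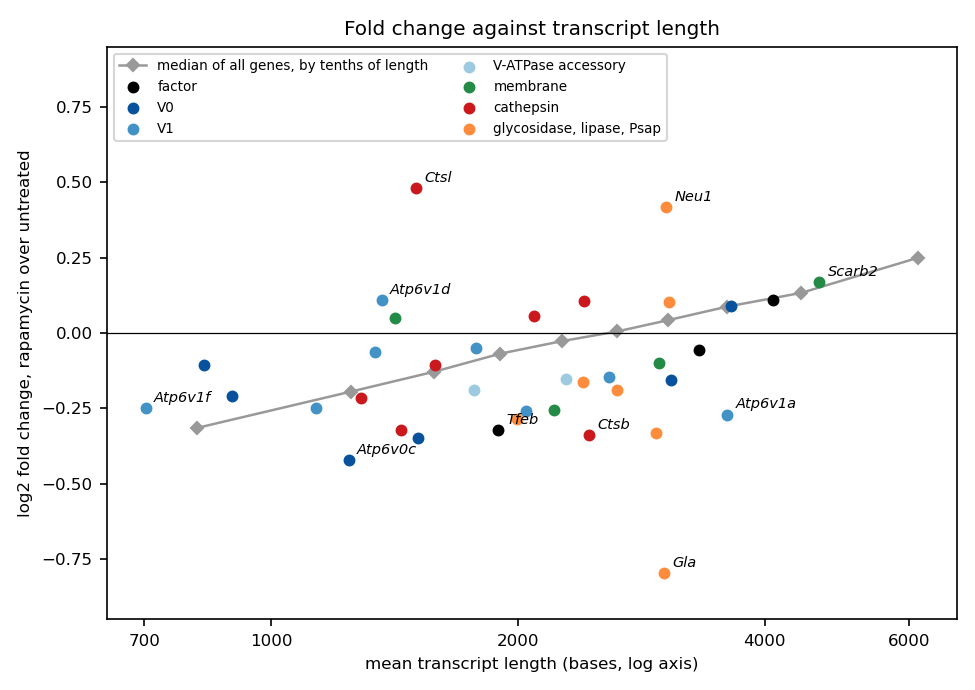
Log2 fold change of rapamycin over untreated (vertical axis, no length correction) against mean transcript length in bases (horizontal log axis) for the 37 genes, coloured by role, with the median of all genes in 10 bins of length as a grey line. The line climbs from −0.32 to 0.25, Atp6v1f, Atp6v0e and Scarb2 lie near it, and Neu1, Ctsl, Gla and Atp6v1a lie away from it.

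Spearman's rho of change with length was 0.245 across the 37 genes (a correlation across genes, which share the same libraries), 0.174 across the 16 pump subunits and −0.011 across the 14 hydrolases. With the length correction, which was fitted over all genes, rho was −0.295, −0.524 and −0.169, so that within the pump subunits the corrected changes followed length in the opposite direction. The pump transcripts are the shorter ones, with a median of 1638 bases against 2406 for the hydrolases.

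Levels summed per length separated the groups in V0 and not in V1. The 6 V0 genes summed to 493, 491 and 500 TPM untreated and 450, 449 and 451 TPM with rapamycin, 495 ± 4.72 against 450 ± 1.12 (SD, n = 3). The 8 V1 genes summed to 517, 564 and 535 TPM against 525, 570 and 524 TPM and overlapped. Single genes weigh on these sums. In V0 Atp6v0c went from a mean of 162 to 130 TPM and Atp6v0a2 from 54.5 to 63.8 TPM. In V1 Atp6v1f went from 149 to 137 TPM and Atp6v1d from 111 to 125 TPM. Gene by gene the median edgeR changes were alike without the length correction, −0.18 in V0 and −0.20 in V1. With it they were −0.10 in V0 and −0.01 in V1. The 14 hydrolases overlapped as well, at 951, 993 and 959 TPM against 959, 972 and 986 TPM. The ratio of summed TPM of the 16 pump subunits to that of the hydrolases was 1.19, 1.19 and 1.2 untreated and 1.16, 1.17 and 1.11 with rapamycin. An exact permutation test on 3 against 3 libraries cannot give a two-sided p below 0.1, so none is given.

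**Figure D4:**
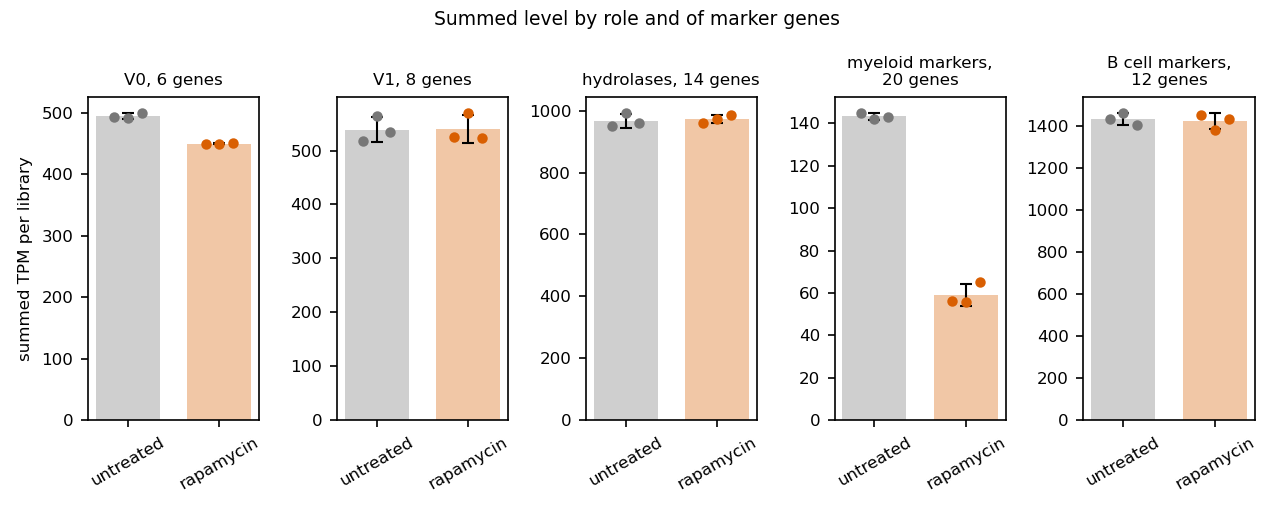
Summed TPM per library for the V0 genes, the V1 genes, the hydrolases and 2 marker lists (vertical axes, each from 0), with points for libraries, bars for the mean and error bars for the SD over 3 libraries. The V0 sum is 495 untreated and 450 with rapamycin, without overlap, V1 and hydrolases overlap, and myeloid markers are at 143 and 59.0 TPM while B cell markers overlap at 1434 and 1424.

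On CPM, which is not divided by length, the same sums were lower in every rapamycin library. V0 stood at 421, 424 and 433 against 387, 381 and 377 CPM, and V1 at 464, 479 and 466 against 428, 448 and 424 CPM. The hydrolases stood at 1491, 1533 and 1499 against 1407, 1408 and 1398 CPM. V1 and the hydrolases thus separated on CPM and not on TPM, and V0 did on both. Neither scale is free of a shift between the groups. CPM changes rose with transcript length, and on log2(TPM + 1) the median of all genes was shifted up by 0.10.

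Promoters with and without the CLEAR core were compared next. Of the 7 genes with it 5 were called lower and 2 were not called (median −0.21), and with the length correction Ctsd and Mcoln1 were higher and Atp6v0d1, Atp6v1a and Gla lower (median 0.01). Of the 23 tested genes with a window and no core, 3 were higher and 10 lower (median −0.15), or 4 and 7 after correction (median −0.12). Between the edgeR fits without and with the length correction, calls in both directions among the 7 genes were thus present only with it. On log2(TPM + 1) Ctsd was also called higher (0.16, limma adjusted p = 0.0132), while Atp6v0e kept its call as lower. Whether the core bears on the changes was not tested.

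The wider lysosome lists give the setting. Their counts are to be read against the 24.1% of all genes called higher and 23.3% lower (20.2% and 18.3% with the length correction). Of 12 other V-ATPase subunits and assembly factors tested, 2 were higher and 3 lower (median −0.09; 2 and 5 with the length correction). Ccdc115, an assembly factor, was at −0.63 (edgeR adjusted p = 1.62e-09; −0.54 corrected) and Vma21, a chaperone of V0 assembly, at −0.35 (corrected −0.47). Oxr1, a TLDc-domain protein that binds the pump, was at 0.41 (corrected 0.44). Dmxl1, which helps V1 and V0 join, was at 0.47, but at 0.08 and not called once its transcript of 10580 bases was accounted for.

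Of 45 other hydrolases and activators 7 were higher and 16 lower (median −0.12), and 4 and 18 with the length correction. The lowest named were Ctsw, a cathepsin of cytotoxic lymphocytes, at 25.7, 26.5 and 25.6 CPM against 13.9, 14.3 and 13.2 CPM (−0.91, edgeR adjusted p = 5.75e-11; −0.74 corrected), and Ifi30, the thiol reductase of antigen processing (−0.81; −0.57). Ctss, a cathepsin of antigen-presenting cells, was at −0.36 (corrected −0.20), beside the lower myeloid marker sum given above. Ctse, an aspartic protease, was higher at 0.24 (corrected 0.27).

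Among 35 other membrane proteins, channels and carriers 6 were higher and 8 lower (median −0.02; 3 and 6 corrected). Tpcn1, a two-pore channel of endolysosomes, rose from 91.2, 93.8 and 93.8 to 138, 129 and 128 CPM (0.50, edgeR adjusted p = 3.11e-15; 0.34 corrected). Npc2, which hands cholesterol to the membrane, was at −0.19, Abcb9, a peptide transporter, at −0.59, and Cln3, the protein lost in juvenile Batten disease, at −0.43 (corrected −0.23, −0.63 and −0.19).

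Of 17 sorting genes 3 were higher and 4 lower (1 and 3 corrected), shares that without the correction lie near or below the background. The cation-independent mannose 6-phosphate receptor Igf2r was at 0.32 but −0.02 after correction of its transcript of 8760 bases, while the smaller receptor M6pr was at −0.19 (corrected −0.20). Gnptg, a subunit of the enzyme that makes the mannose 6-phosphate tag, measured 31.0, 32.0 and 32.3 against 19.9, 18.6 and 17.5 CPM (−0.77, edgeR adjusted p = 3.0e-10; −0.61 corrected). Ap1s1, an adaptor subunit, was at −0.57 (corrected −0.36).

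Of 13 regulators of TFEB 7 were higher and 1 lower (median 0.17), but 3 and 2 with the length correction (median −0.01). Mtor, the kinase that rapamycin inhibits, Fnip1, a folliculin partner, and Gsk3b, a kinase of TFEB, were at 0.30, 0.32 and 0.19, and at 0.02, 0.07 and −0.04 corrected, none then called. Zkscan3, a repressor of lysosome genes, kept its call (0.26; 0.23). Of 10 TFEB targets outside the lysosome 1 was higher and 0 lower (median 0.05), but 3 and 1 with the length correction (median 0.06). The 1 called without it was Gabarapl1, an autophagy protein of the Atg8 family, on 8 to 30 counts per library. It measured 1.04, 0.761 and 2.03 against 3.28, 2.93 and 2.78 CPM (1.24 ± 0.35, edgeR adjusted p = 0.00227, and 1.37 corrected).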

How the data were processed

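Per the labels' protocols, the 6 libraries of splenic naive CD4+ T cells were prepared with NEBNext Ultra II Directional reagents from RNA isolated by RNAiso PLUS and NucleoSpin clean-up. STAR, RSEM and mm10 are named per the submitters' processing notes, without versions in the sources used here. According to the headers, the deposited files give RSEM expected counts, TPM and FPKM for each gene, with its length and effective length. Expected counts as deposited are estimates in which reads shared by several genes are split. TPM and FPKM as deposited by the authors correct for length and depth, and FPKM was not used further.

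Symbols and positions came from GENCODE vM21, which matched 55227 of 55487 identifiers. The 260 others held at most 0.01305% of a library. The 38 genes, the lists and the length correction were chosen with earlier results of these data known. Expected counts were rounded, filtered with filterByExpr (11950 genes) and scaled by TMM, and CPM was computed with these factors. edgeR 4.0.16's quasi-likelihood test (robust, group only) gave p-values adjusted over all 11950 genes by Benjamini-Hochberg, with a threshold of 0.05. The SE is the log2 fold change over the square root of F. The length correction fitted each library's deviations of log2 CPM by a natural spline (5 degrees of freedom) on log2 mean transcript length, using genes whose average log2 CPM was 2 or more, and took the fitted values as offsets. The procedure was run on simulated data in which the changed genes were few and drawn regardless of length. Such data cannot show whether the correction also removes real changes that follow length.

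Per-library values were set by rule for the factors, for genes called with an absolute change of at least 0.5, for genes whose call the correction ended, and for the highest TPM of each role. Those of other genes were chosen after their values were seen, as were the printed sequences. From each of 6 wider lists the 4 called genes with the smallest adjusted p were named, with any called at 1 or more. 9 marker lists were fixed by name, and their sums in NK cells (70.8 to 73.9 against 68.4 to 69.9 CPM), dendritic cells (4.98 to 5.55 against 2.73 to 3.36, with Cd209a and Clec9a at 0 in all rapamycin libraries), erythroid cells and platelets (7.89 to 11.3 against 2.51 to 2.9, with Pf4 and Ppbp at 0 in all rapamycin libraries) and activated, memory or regulatory T cells (145 to 149 against 121 to 127) are those not given elsewhere. The NK and the activated, memory or regulatory T cell sums held changes in both directions. Of 6 NK cell markers tested 1 was higher and 2 lower, with Nkg7 at a mean of 4.64 and 6.82 CPM and Gzma at 7.79 and 2.18 CPM. Of the 7 activated, memory or regulatory T cell markers 2 were higher and 3 lower. Icos was at 32.8 and 39.6 CPM and Cd44 at 33.7 and 10.7 CPM. Tnfrsf17, a plasma cell marker, was at 0 in all 6 libraries. 18 alternatives were run: other scaling, filters, DESeq2 1.42.0, limma 3.58.1 on log2(TPM + 1) and log2(TPM + 0.1), the replicate number as a block, length with GC content or block, and leaving out each library. R 4.3.3, Python 3.11.15 and matplotlib 3.10.9 were used.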

Additional observations from a re-analysis of the deposited data

How the results depend on the processing

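Calls at these depths rest on 3 libraries a group and on the treatment of transcript length. Of the 37 genes tested, the count called higher went from 4 to 2 with DESeq2, upper-quartile or no composition factors and to 6 with the length correction, and the count lower from 19 to 7 with limma on either log2(TPM) scale. For the pump subunits the count higher (1) was 0 with DESeq2, limma, upper-quartile or no composition factors, no filter or the replicate block, and 2 with RLE factors or the length correction, alone, with GC content or with the block. The count lower (10) was 5 with the length correction, with or without the block, 6 with GC content as well and 2 with limma. For the hydrolases the count higher (2) was 1 with DESeq2, 3 with the length correction and 4 with limma, and the count lower (7) was 4 with limma. Same-numbered libraries showed no shared deviation (correlations −0.025, −0.009 and −0.031). These deviations were taken from the means of only 3 libraries, so they cannot decide whether the numbers mark pairs. The replicate block ended 1 call among the genes described, Atp6v0a2 (adjusted p = 0.0543). The median of the pump subunits was −0.0735 with length and GC, −0.075 with length, −0.0751 with length and block, −0.0169 and −0.0165 with limma at 0.1 and 1, −0.21 without composition factors, −0.19 without a filter and −0.22 with upper-quartile factors. For the hydrolases it was −0.0907, −0.0991 and −0.102, −0.0812 and −0.0792, −0.22 without composition factors and −0.22 with upper-quartile factors. Relative to all genes the limma medians were −0.10 and −0.17 with a pseudocount of 1. Of all called genes 50.8% were higher, against 70.3% with limma at 1. Leaving out each library gave 2 to 4 genes higher and 16 to 18 lower, pump subunits 0 to 2 higher and 8 to 9 lower with medians of −0.21 to −0.18, and hydrolases 1 to 3 higher and 5 to 7 lower with medians of −0.20 to −0.14. Some changes took the opposite sign. With length, length and GC, and length with block these were Mitf (−0.0215, −0.0215, −0.0151), Atp6v0b (0.18, 0.20, 0.18), Atp6v0e (0.063, 0.0528, 0.0632), Atp6v1c1 (0.0256, 0.0154, 0.0262), Atp6v1e1 (0.0993, 0.0968, 0.0985), Atp6v1f (0.0792, 0.0959, 0.079) and Ctsa (0.0051, 0.0233, 0.0043), and without GC Atp6v0a2 (−0.0055, −0.0054) and Scarb2 (−0.0011, −0.0009). With limma at 0.1 and at 1 these were Tfe3 (0.0753, 0.0712), Atp6v0a1 (0.44, 0.37), Atp6v1a (0.0727, 0.0694), Atp6v1b2 (0.064, 0.0628), Atp6v1c1 (0.27, 0.26), Atp6v1e1 (0.0011, 0.0011), Atp6ap1 (0.0958, 0.0949) and Ctsa (0.10, 0.10). Leaving out each library, Mitf ranged from −0.0616 to 0.255 and Mcoln1 from −0.0133 to 0.0945, both lowest without untreated library 1. The cause was not tested.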
